A study of Mus musculus with 48 samples.

Results

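The genes described here encode 7 digestive enzymes of the enterocyte brush border, Sis, Mgam, Treh, Anpep, Dpp4, Mep1a and Mep1b, of 55401 genes in the read count table of the study. They were taken by symbol from the mouse GENCODE vM21 annotation, and all 7 were found. Sis was included because its RNA differed strongly between the genotypes, so genotype differences of these genes are given as descriptions without a test. Their course over the day was not part of the rule that chose them and was tested, although earlier results of these data were known.

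The brush border is the dense carpet of microvilli on the luminal face of absorptive gut epithelial cells. Its membrane carries hydrolases that finish digestion: disaccharidases split short sugars, and peptidases and meprins cleave peptides and proteins. These enzymes are best known from the small intestine, and the colon epithelium makes some of them at lower levels. BMAL1, the product of Arntl, is a transcription factor of the circadian clock that pairs with CLOCK or NPAS2 and binds E-box elements in DNA.

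Bulk RNA was sequenced from colon tissue of 48 male mice of the C57BL/6J background at 18 to 20 weeks of age. The Bmal1IEC-/- mice carried floxed Bmal1 alleles (Bmal1fl/fl) with 1 copy of a Villin-driven Cre recombinase, which acts in intestinal epithelial cells, and the controls were Bmal1fl/fl littermates without Cre. All were housed singly with running wheels on chow without restriction, and 4 mice of each genotype were taken at each of 6 circadian times (CT1, CT5, CT9, CT13, CT17 and CT21) on the second day of darkness. Main results cover the 46 mice that the study analysed, 24 controls and 22 Bmal1IEC-/- mice, and the pair outside them, SV384 and SV385 at CT1, is given beside Sis.

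Total counts ran from 3144997 to 4785844 per mouse. Colon tissue also holds muscle, stroma and immune cells in which Bmal1 is intact, and the deleted gene served as the check of the labels: Arntl ranged from 15.8 to 283 normalized counts in controls and from 84.9 to 180 in Bmal1IEC-/- mice, a log2 difference of 0.32 (SE 0.17, edgeR adjusted p = 0.241), so its level did not separate the genotypes, whereas its rhythm did (adjusted p of the change 5.05e-13). Its target Nr1d1 was lower by a log2 difference of -1.48 (SE 0.12). A normalized count here is the read count divided by the size factor of the library. The 5 epithelial markers (Epcam, Krt8, Krt20, Cdh1 and Vil1) were abundant in every mouse. Their sums were 16580 to 23480 in controls and 18410 to 24140 in Bmal1IEC-/- mice. Of 10 small intestine markers, 5 had a median count at or under 3. The other 5 were Alpi, Fabp2, Fabp6, Rbp2 and Slc10a2. Their median normalized counts ran from 8.16 (Fabp6) to 1212 (Fabp2) in controls and from 8.59 to 1265 in Bmal1IEC-/- mice.

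Sis, the sucrase-isomaltase that splits sucrose and the branch points of starch, was far lower in Bmal1IEC-/- mice (ENSMUSG00000027790, GRCm38 chr3:72888557-72967863, minus strand). Normalized counts ran from 163 through a median of 276.5 to 438 in the 24 controls and from 14.3 through a median of 32.7 to 68.7 in the 22 Bmal1IEC-/- mice. No value was shared between the genotypes, and the lowest control stood 2.37 times above the highest Bmal1IEC-/- mouse. Means were 288 ± 88.4 (SD, n = 24) and 38.5 ± 17.1 (SD, n = 22), a log2 difference of -2.89 (SE 0.13) in the model of genotype and circadian time, or 7.41-fold. Of the 14475 genes tested, 1.36% passed the thresholds for a genotype difference (adjusted p under 0.05 and fold change above 1.5), 0.691% lower and 0.67% higher in Bmal1IEC-/- mice, as did 1 of the 6 hydrolases tested, Sis, which was lower. Sis was chosen from this same contrast, so nothing is read from the count.

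Among the 14475 genes, 0.0207% were lower in every Bmal1IEC-/- mouse than in every control, which is 3 genes: Sis, Thbs4 and Cyp4b1, named after their values were seen. The opposite separation held for 0.0345%, 5 genes that include Cry1, Npas2, Ggh and Cldn8. Only Tff2 and Retnlb had a log2 difference of larger size than Sis among the genes tested, and both were low in one genotype (Tff2 8.90 against 0.262 and Retnlb 7.28 against 141 normalized counts in control against Bmal1IEC-/- mice). Sis counts in single Bmal1IEC-/- mice were 14 to 82, above the floor of 3 counts in each, so Sis RNA was still detected in every mouse.

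**Figure D1:**
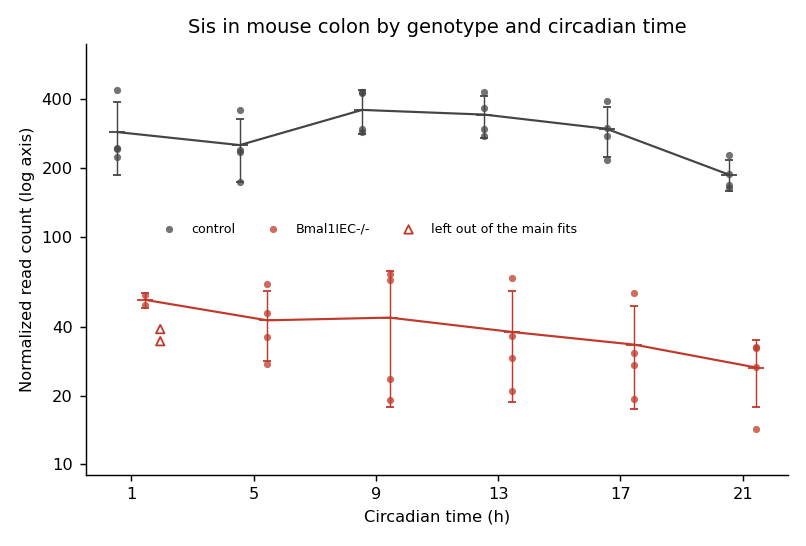
Sis RNA in the colon. The x axis is circadian time in hours and the y axis the normalized read count on a log axis; each dot is 1 mouse, lines join group means, bars are ± SD, and triangles are the 2 Bmal1IEC-/- mice outside the main fits. All controls sit between 163 and 438 and all Bmal1IEC-/- dots between 14.3 and 68.7.

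The separation was seen at each time of day. At CT1 the controls had 224, 242, 245 and 438 normalized counts of Sis, the Bmal1IEC-/- mice of the main set 49.9 and 55.6, and the pair outside it 34.7 and 39.2. At CT5 the controls had 173, 236, 240.0 and 359, and the Bmal1IEC-/- mice 27.6, 36.2, 46.01 and 61.6. At CT9 the controls had 287, 298, 425 and 429, and the Bmal1IEC-/- mice 19.2, 23.7, 64.6 and 68.7. The highest value of each genotype fell within these daytime groups, at CT1 in controls and at CT9 in Bmal1IEC-/- mice, and the genotypes did not overlap.

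At CT13 the controls had 276, 298, 365 and 433 normalized counts of Sis, and the Bmal1IEC-/- mice 20.97, 29.3, 36.7 and 65.6. At CT17 the controls had 216, 277, 301 and 394, and the Bmal1IEC-/- mice 19.3, 27.3, 31.0 and 56.6. At CT21 the controls had 163, 169, 189 and 227, and the Bmal1IEC-/- mice 14.3, 26.8, 32.5 and 32.9. The late night group had the lowest mean of Sis in both genotypes. The fitted log2 difference was -2.45 (SE 0.39) at CT1, -2.58 (SE 0.31) at CT5, -3.02 (SE 0.30) at CT9, -3.15 (SE 0.30) at CT13, -3.15 (SE 0.32) at CT17 and -2.80 (SE 0.34) at CT21. With all 48 mice the overall log2 difference was -2.90.

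Sis was also lower relative to the epithelium. Per 1000 normalized counts of the 5 epithelial markers, Sis stood at 8.19 to 23.9 in controls (median 13.4) and at 0.656 to 3.73 in Bmal1IEC-/- mice (median 1.59), again without overlap. Other tissue markers overlapped between genotypes: the small intestine list summed to 1639 to 3675 in controls and 1393 to 2975 in Bmal1IEC-/- mice, with Alpi higher and Slc10a2 lower, the goblet list to 54850 to 100100 and 55770 to 98160, with Zg16 higher and Clca1 lower, and the smooth muscle list to 13490 to 21460 and 12010 to 19820. The sums of the fibroblast list were 3577 to 6043 and 3175 to 6363, of T cells 47.1 to 98.2 and 43.7 to 80.2, of B and plasma cells 593 to 2070 and 646.5 to 2381, of distal Hox genes 48.1 to 93.8 and 40.3 to 92.1, and of anterior Hox genes 539 to 773 and 576 to 863. Of 6 pancreas markers, 5 had a median count at or under the floor in both genotypes. All but 0.0207% (lower) and 0.0345% (higher) of the genes tested overlapped between genotypes, so overlap does not show a like tissue make-up. By adjusted p alone, 2 of 5 smooth muscle and 1 of 5 fibroblast genes were lower and 0 higher. Of 5 goblet genes 3 were higher and 1 lower. Of the 5 epithelial markers that Sis was set against, 2 were higher and 1 lower, with a list median of -0.026. Over all genes 5.64% were lower and 5.44% higher. List medians were -0.178 for smooth muscle, -0.127 for fibroblast, -0.248 for T cell and 0.195 for goblet genes. The part of these tissues in the Sis result was not tested, and in bulk tissue fewer cells of a type and less RNA per cell cannot be told apart.

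Mgam, the maltase-glucoamylase that releases glucose from starch fragments and is the closest relative of Sis in function, did not follow it (ENSMUSG00000068587, chr6:40628831-40769123, plus strand). Its normalized counts ran from 1110 through 1498 to 2023 in controls and from 951 through 1467 to 1897 in Bmal1IEC-/- mice. The ranges lie almost on top of each other, and the log2 difference was -0.08 (SE 0.05). A pseudogene related to Mgam lies beside it, but none of the 8726 windows of 100 bases in the annotated Mgam transcripts was found in the transcripts of another gene, and the same held for the other 6 enzymes. Treh, which splits trehalose, had at most 5 counts in any of the 46 mice; 22 of 24 controls and 20 of 22 Bmal1IEC-/- mice were at or under the floor of 3 counts, so it was too rare to be tested and no fold is given.

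The promoters of Sis and Mgam are shown because Sis was lower in the mutant, whereas its relative Mgam kept its range. Each run is the 250 bases before the RefSeq start site (GRCm38.p6), 5′ to 3′ on the strand of the gene, with capitals at matches to the 6 motifs searched on both strands. These were the E-box, spelled CACGTG, which the clock factors bind, and its variant known as the E′-box, spelled CACGTT. A further clock element was the D-box, spelled TTANGTAA. The half-site that nuclear receptors recognise is spelled AGGTCA. The motif used for CDX factors is spelled TTTATG, and the one for the GATA family of factors is spelled AGATAA. No motif is part of another. Sis is chr3:72967864-72968113 (minus strand) and Mgam chr6:40628581-40628830 (plus strand).
Sis: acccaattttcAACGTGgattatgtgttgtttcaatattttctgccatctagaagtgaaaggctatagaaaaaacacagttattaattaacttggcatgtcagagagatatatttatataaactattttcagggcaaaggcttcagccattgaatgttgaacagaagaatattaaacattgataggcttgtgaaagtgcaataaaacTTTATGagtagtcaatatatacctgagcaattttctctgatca
Mgam: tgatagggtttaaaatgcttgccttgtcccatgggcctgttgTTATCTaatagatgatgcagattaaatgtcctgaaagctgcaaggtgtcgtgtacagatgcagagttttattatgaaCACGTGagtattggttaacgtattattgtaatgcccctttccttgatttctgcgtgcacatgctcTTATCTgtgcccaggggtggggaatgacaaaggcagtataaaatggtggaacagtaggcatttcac

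Counting the start site as 0, the Sis promoter held an E′-box match at -239 and a CDX match at -43. Mgam held the full E-box at -131 and GATA matches at -208 and -66. Among the 32851 promoter windows of 300 bases in the RefSeq set, 7.15% held the E-box, 4.68% the E′-box, 2.32% the D-box, 16.3% the nuclear receptor half-site, 11.9% the CDX motif and 11.2% the GATA motif. Of the 7 genes, 6 had a promoter in that set. In these 6 windows the E-box was found for Mgam alone and the E′-box for Sis alone, Dpp4 had a GATA match at -32, Mep1a a CDX match at 13, Treh nuclear receptor half-site matches at -60 and 29, and Anpep none of the 6. A match is a run of letters and does not show that a factor binds there.

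The peptidases kept their ranges across genotypes. Anpep, the aminopeptidase N that removes amino acids from the end of peptides, had 56.1 through 77.9 to 114 normalized counts in controls and 47.0 through 72.7 to 181 in Bmal1IEC-/- mice (chr7:79821803-79861059), a log2 difference of 0.01 (SE 0.11). The highest of these, 181, came from 1 mouse at CT13, SV395, while the other 21 stayed at or under 121; without that mouse the log2 difference was -0.08. At CT1 the controls had 78.1, 87.0, 90.0 and 90.4, and the Bmal1IEC-/- mice 59.8 and 62.2 in the main set and 34.7 and 74.8 in the pair outside it, a log2 difference of -0.50 (SE 0.32) that the other times did not share. SV395 also had the highest Bmal1IEC-/- sums of the epithelial and small intestine lists and 61.6 normalized counts of the ileal bile acid carrier Fabp6, against a median of 8.59; the part of this in its Anpep value was not tested.

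Dpp4, which clips dipeptides from peptides such as incretin hormones, had 129 through 164 to 188 normalized counts in controls and 122 through 165 to 211 in Bmal1IEC-/- mice (chr2:62330073-62412231), a log2 difference of 0.04 (SE 0.05). Only at CT13 did the genotypes stand apart: controls had 129, 133, 136 and 139, and Bmal1IEC-/- mice 154, 165, 184 and 199, a log2 difference of 0.39 (SE 0.12). At the other 5 times it lay between -0.05 and -0.02. How many of all genes stand apart at a single time is not given here, so nothing is read from this separation. The same holds for Anpep at CT1, where the main set has 2 Bmal1IEC-/- mice. Dpp4 shares 232 exon bases with Gm13561 on the other strand, and the strand setting of the counting is not given in the sources used here.

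Both meprins, metalloproteases of the brush border that cleave proteins and mucus components, overlapped between genotypes at every time. Mep1a, the alpha subunit, had 1724 through 2093 to 2584 normalized counts in controls and 1591 through 2183 to 2527 in Bmal1IEC-/- mice (chr17:43474324-43502812), a log2 difference of 0.04 (SE 0.04). Mep1b, the beta subunit, had 291.5 through 467 to 656.5 in controls and 231.5 through 436 to 641 in Bmal1IEC-/- mice (chr18:21061923-21100199), a log2 difference of -0.09 (SE 0.07). Its largest difference at a single time was -0.47 (SE 0.16) at CT17, where controls had 328, 436, 480 and 504 and Bmal1IEC-/- mice 231.5, 318.5, 351 and 358. Their deviations from the group means went together over the 46 mice (Pearson r = 0.61 of log2(CPM + 1)). Within genotypes r was 0.67 over controls and 0.57 over Bmal1IEC-/- mice, here of log2(normalized count + 1), so the scales differ. These r values are a description of values that share libraries. The corresponding r of Sis was 0.45 with Dpp4 (0.15 over controls and 0.56 over Bmal1IEC-/- mice), 0.44 with Mgam (0.12 and 0.57) and -0.11 with Mep1b (-0.37 and 0.031).

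**Figure D2:**
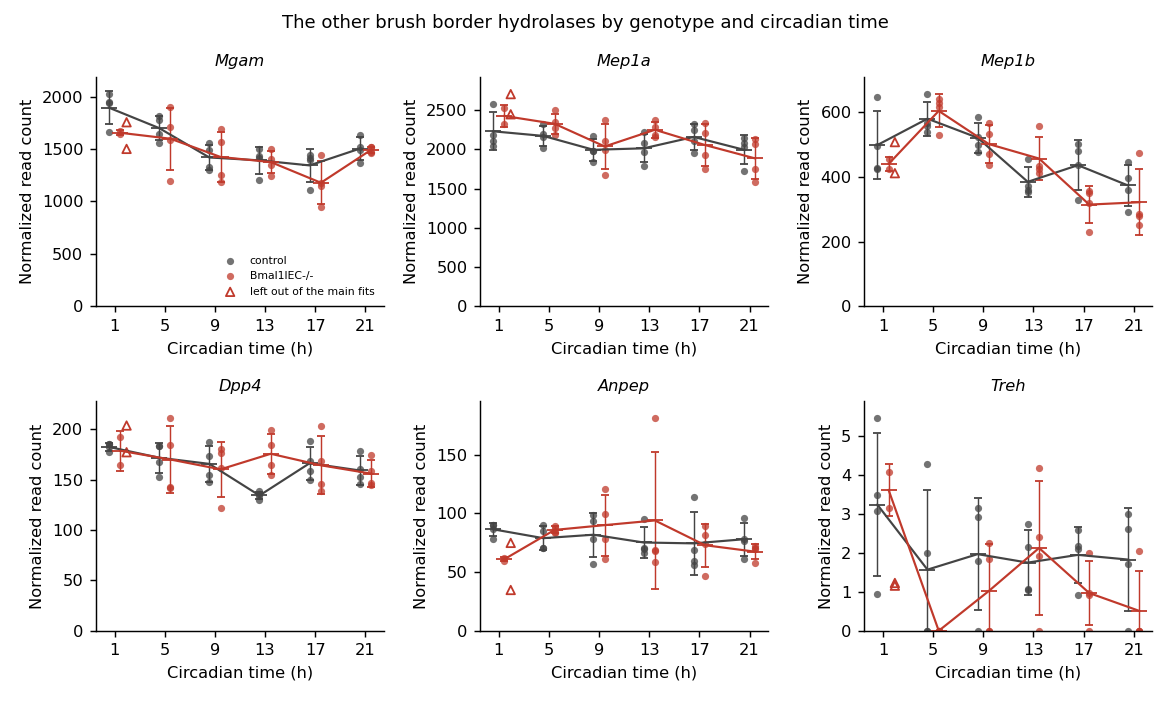
The other 6 hydrolases. Each panel plots the normalized read count (y axis, from 0) against circadian time in hours for 1 gene; dots are mice, lines join group means, bars are ± SD, and triangles are the 2 Bmal1IEC-/- mice outside the main fits. Genotypes overlap at most times, Dpp4 stands apart at CT13 and Anpep at CT1, 1 Anpep value reaches 181, and Treh stays at or under 5.45.

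Per kilobase of exon, the scale on which levels of different genes can be compared, Sis took a different place among the 7 in each genotype. In controls the mean normalized count per kilobase was 607 ± 53.4 (SD, n = 24) for Mep1a, 178 ± 37.0 for Mep1b, 177 ± 26.5 for Mgam, 38.5 ± 11.9 for Sis, 25.8 ± 3.01 for Dpp4, 19.1 ± 3.61 for Anpep and 1.0 ± 0.683 for Treh. In Bmal1IEC-/- mice it was 620.0 ± 75.9 (SD, n = 22) for Mep1a, 168 ± 46.7 for Mep1b, 165 ± 26.2 for Mgam, 26.3 ± 3.71 for Dpp4, 19.4 ± 6.71 for Anpep, 5.15 ± 2.29 for Sis and 0.571 ± 0.688 for Treh. Sis exceeded Dpp4 in 20 of 24 controls and in 0 of 22 Bmal1IEC-/- mice, and exceeded Anpep in 23 and 0. Mep1b and Mgam did not differ beyond their spread, since Mep1b was the higher in 13 of 24 controls and 12 of 22 Bmal1IEC-/- mice. As a share of the counts of the 7 genes, Sis made up 6.24% ± 1.92 (SD, n = 24) in controls and 0.880% ± 0.343 (SD, n = 22) in Bmal1IEC-/- mice.

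Sis varied most from mouse to mouse among the 6 genes past the filter. Within circadian times the coefficient of variation of Sis was 26.0% in controls and 45.2% in Bmal1IEC-/- mice, where its counts are low. Anpep followed with 20.5% and 36.0%, the latter 19.6% without SV395. Mep1a (8.43% and 10.2%), Dpp4 (8.03% and 15.2%), Mgam (8.65% and 13.5%) and Mep1b (14.7% and 15.4%) were steadier.

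**Figure D3:**
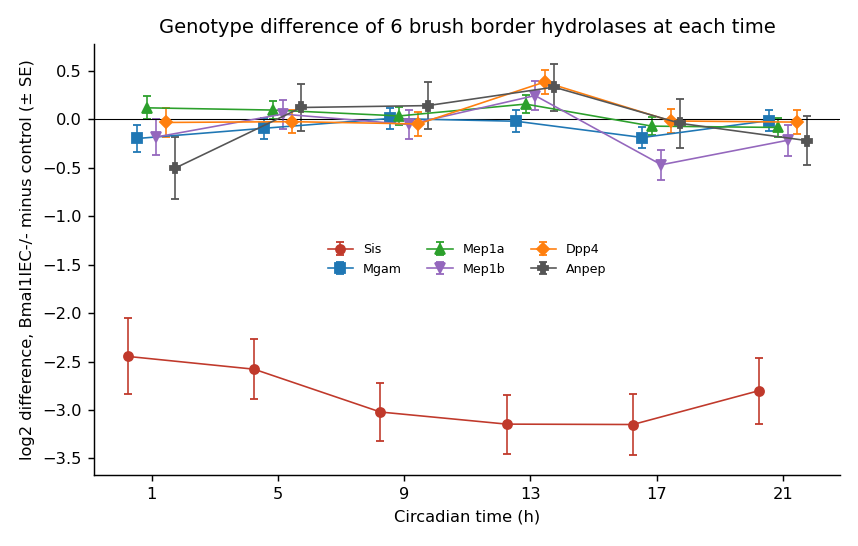
Genotype difference at each circadian time. The x axis is circadian time in hours and the y axis the fitted log2 difference, Bmal1IEC-/- minus control, with bars of ± SE, for the 6 genes past the count filter. Sis lies between -3.15 and -2.45 throughout, and the other 5 genes between -0.50 and 0.39.

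The sampling at intervals of 4 h also showed when these enzymes peaked. In controls, rhythms were tested with JTK_cycle, a rank test for a 24-h cycle, and 4 of the 7 genes passed an adjusted p under 0.05 (Sis, Mgam, Dpp4 and Mep1b), where 24.1% of all 32471 genes with a count did, and 50.0% of the 14475 genes past the count filter. In Bmal1IEC-/- mice 2 of the 7 passed (Mgam and Mep1b), beside 14.2% and 29.3%. The counts are thus not far from those of genes at large, and with the p further adjusted over all genes (q under 0.05, met by 15.5% and 4.30% of genes) they were 2 (Mgam and Mep1b) and 1 (Mep1b). A cosine fit in edgeR called 4 and 2, beside 50.7% and 23.1% of the genes it tested.

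Mgam had the smallest rhythm p of the 7 genes in controls, with a smaller fitted fold than Sis or Mep1b. Its normalized counts were 1660, 1941, 1950 and 2023 at CT1 and 1110, 1400, 1418 and 1447 at CT17. These control groups had the highest and lowest means and did not overlap. They were picked by their values, and how many of all genes separate in this way is not given here. Nothing is read from the separation. Mgam peaked at 2 h of circadian time (JTK_cycle adjusted p = 4.60e-05, q = 0.00122) with a fitted peak-to-trough fold of 1.38. In Bmal1IEC-/- mice the peak was at 4 h, the fold 1.32 and the adjusted p 0.00271 (q = 0.0562), with 1639 and 1670 at CT1 and 951, 1146, 1173 and 1444 at CT17. The rhythm did not differ detectably between genotypes (edgeR test of the change, adjusted p = 0.932).

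Mep1b was rhythmic in both genotypes, also after adjustment over all genes, and peaked at 6 h in each. At CT5 controls had 539, 559, 567 and 656.5 normalized counts and Bmal1IEC-/- mice 530, 618, 630.1 and 641. At CT21 controls had 291.5, 361, 398 and 445 and Bmal1IEC-/- mice 250.3, 279, 287 and 473. All lay below the CT5 values, but CT5 and CT21 had the highest and lowest control means, so nothing is read from this. The adjusted p was 0.00559 (q = 0.0381) in controls and 2.52e-05 (q = 0.00468) in Bmal1IEC-/- mice, with peak-to-trough folds of 1.47 and 1.89. The difference between these rhythms had an adjusted p of 0.555 (unadjusted 0.0832).

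Sis peaked later than the other rhythmic enzymes, at 10 h in controls (JTK_cycle adjusted p = 0.0178, q = 0.0932), with a fitted peak-to-trough fold of 1.58 and group means of 360 ± 78.0 at CT9 and 187 ± 29.1 at CT21 (SD, n = 4 each). The call rested on the late-night group, since leaving out SV433 or SV434 at CT21 gave 0.0571. In Bmal1IEC-/- mice no rhythm of Sis was called (adjusted p = 1), although the fitted fold was 1.495, close to that of controls, on far lower counts. The fitted peak lay at 6.6 h there, against 10.6 h in controls. The test of the change itself gave an adjusted p of 0.805, so a loss of rhythm was not shown.

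Dpp4 peaked at 2 h in controls (adjusted p = 0.0123, q = 0.0699, peak-to-trough fold 1.224) and was not called in Bmal1IEC-/- mice (adjusted p = 1, fold 1.04). The change had an adjusted p of 0.664, and 0.615 with circadian time as a factor (called for 0.58% of genes), so the difference at CT13 did not amount to a changed course by these tests. Mep1a and Anpep were called rhythmic in neither genotype, with adjusted p of 1 for each in controls and of 0.543 and 0.368 in Bmal1IEC-/- mice. Treh gave 1 in both.

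None of the 6 genes tested had a changed rhythm by edgeR (0 of 6, beside 0.940% of 14475 genes, or 136), none did by DESeq2 (202 genes), and none had an unadjusted p under 0.05, where 1522 genes did. A genotype effect that differed between day (CT1, CT5 and CT9) and night was called for 0 of 6 by edgeR (beside 0.0691%, or 10 genes, with 1297 at an unadjusted p under 0.05) and for 0 by DESeq2 (18 genes), and the smallest unadjusted p among the 6 was 0.141. For Sis the night difference minus the day difference was -0.32 on the log2 scale (SE 0.30).

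Other genes of the brush border and of nutrient uptake show what stood beside Sis. Their lists were drawn up with earlier results of these data known, so the counts and adjusted p values are descriptive. Of 15 other brush border hydrolases, 9 were tested, and 3 passed both genotype thresholds, 1 higher and 2 lower in Bmal1IEC-/- mice, beside 0.67% higher and 0.691% lower of all genes tested. Alpi, the intestinal alkaline phosphatase, rose in Bmal1IEC-/- mice (36.8 to 150.0 against 19.9 to 78.0 normalized counts in controls), with a log2 difference of 0.65 (SE 0.12, edgeR adjusted p = 0.000149), and without SV477 the fold fell short of the threshold. Ggt1, a gamma-glutamyltransferase that starts glutathione breakdown, fell (29.6 to 111 against 59.3 to 238) with -0.77 (SE 0.14, adjusted p = 9.90e-05). Dpep1, the dipeptidase with the highest counts on the list, was at 847 to 1292 against 850 to 1490, with -0.15 (SE 0.05, adjusted p = 0.0356). The median over the 9 was -0.15, beside 0.00 over all genes tested. Both Alpi and Ggt1 overlapped between genotypes, as did all but 0.0207% (lower) and 0.0345% (higher) of the genes tested. Lct, the lactase, had at most 9.28 normalized counts in any mouse.

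Among 5 sugar transporters, 3 were tested and 1 fell past both thresholds (beside 0.691% of all genes), Slc2a5, which takes up the fructose that sucrase releases. It had 7.16 to 59.3 normalized counts in controls and 3.66 to 17 in Bmal1IEC-/- mice, a log2 difference of -1.30 (SE 0.17, edgeR adjusted p = 1.08e-07). Slc5a1, the sodium-glucose carrier for the glucose that the disaccharidases release, was at 552 to 1116 and 615 to 980.2 with -0.08 (SE 0.05, adjusted p = 0.268). Of 12 peptide and amino acid transporters, 11 were tested and 2 fell past both thresholds (beside the same 0.691%), Slc6a20a (-0.83, SE 0.26, adjusted p = 0.0287) and Slc3a1 (-0.74, SE 0.10, adjusted p = 2.27e-07). The call of Slc6a20a was lost without control SV415 and in a fit with no time term, and with all 48 mice it was not among the genes tested. In the same list Slc6a14, the most abundant, did not pass (-0.05, SE 0.08, adjusted p = 0.733). The list medians were -0.08 and -0.05.

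Of 15 structural genes of the microvillus 14 were tested, and none passed both thresholds by edgeR, while 5 were lower and 0 higher by adjusted p alone, beside 5.64% lower and 5.44% higher of all genes tested. Their median was -0.06. Slc9a3r1, an anchor of membrane proteins in microvilli, had the largest difference of them (-0.46, SE 0.06, adjusted p = 5.13e-07), and Cdhr5, a cadherin linking microvillus tips and the most abundant, had -0.04 (SE 0.04, adjusted p = 0.611). Of 12 transcription factors of enterocytes 10 were tested and none passed both thresholds; Cdx2, whose family acts on the Sis promoter, was higher by adjusted p alone (0.26, SE 0.05, adjusted p = 0.000444), and Hnf4a, the most abundant, did not pass (0.07, SE 0.03, adjusted p = 0.146).

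**Figure D4:**
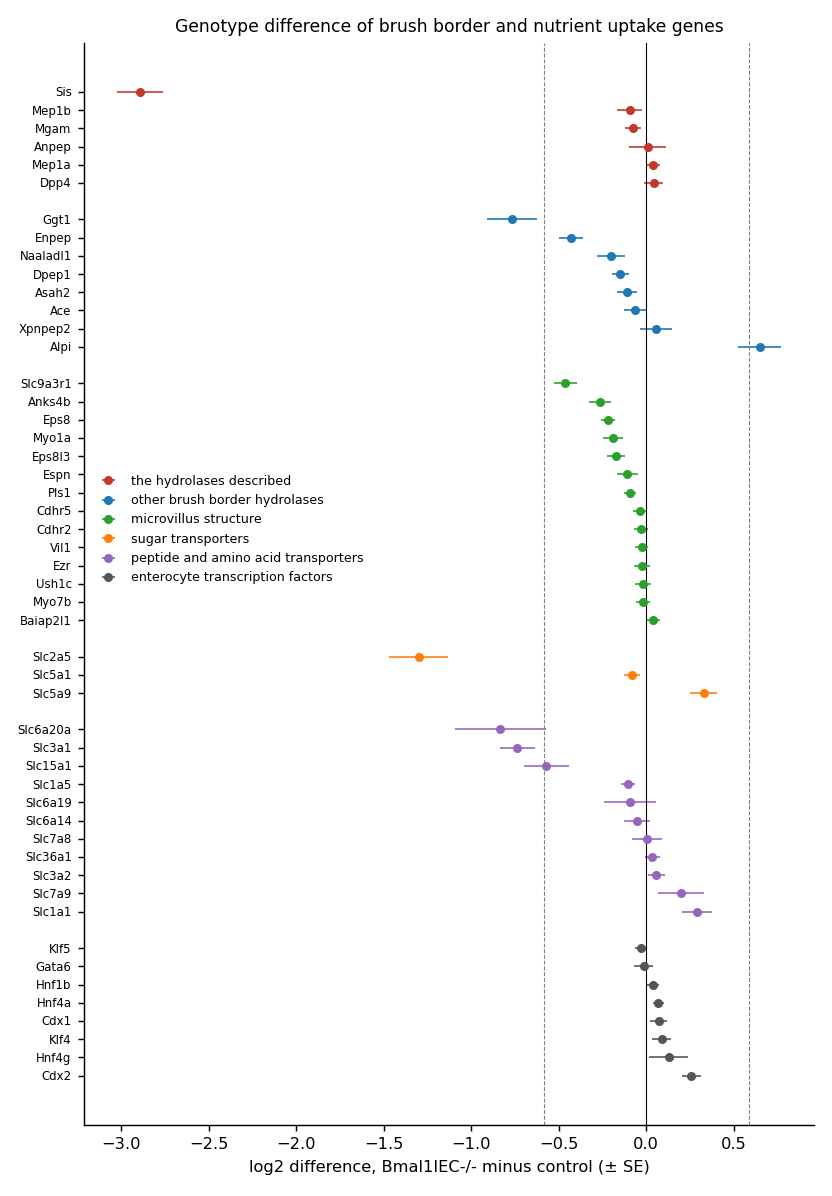
Genotype difference of brush border and nutrient uptake genes. The x axis is the fitted log2 difference, Bmal1IEC-/- minus control, with bars of ± SE, for genes past the count filter (y axis), coloured by list; dashed lines mark a fold change of 1.5. Sis at -2.89 stands apart, Slc2a5 at -1.30 is the next lowest, and most genes lie between the dashed lines.

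The genes whose levels were most like those of Sis over the 46 mice, by Pearson's r of log2(CPM + 1), were Slc13a1 (r = 0.887), Cyp4b1 (0.879), Smim24 (0.861), Thbs4 (0.855) and Ugt1a1 (0.843). All of them were lower in Bmal1IEC-/- mice, as r over both genotypes favours. Slc13a1, a sulfate carrier, had a median of 294 normalized counts in controls and 124 in Bmal1IEC-/- mice, and Cyp4b1, a cytochrome P450, 448 and 130. Smim24, a small membrane protein, had 733 and 353, Thbs4, a thrombospondin, 65.8 and 19.0, and Ugt1a1, the enzyme that conjugates bilirubin, 239.5 and 145. Among the hydrolases themselves, r with Sis was 0.296 for Mgam, 0.203 for Mep1b, 0.0389 for Dpp4, 0.0186 for Anpep and -0.0288 for Mep1a.

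With the mean of each genotype and time removed, other genes came first: Pikfyve (r = 0.718), Ranbp2 (0.715), Pura (0.707), Kif5b (0.704) and Gk (0.701). Pikfyve encodes a lipid kinase, Ranbp2 a nuclear pore protein, Kif5b a kinesin and Gk the glycerol kinase. None of these 5 was among the first group, and their log2 differences between genotypes ran from 0.00 for Pikfyve to 0.33 for Gk. The mice of 1 group share a time and genotype but not a library, and these r values carry no test.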

How the data were processed

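Per the labels and the methods of the study, the authors trimmed paired reads of stranded mRNA libraries with Trimmomatic 0.39, aligned them to mm10 with STAR 2.7.5c and counted reads on exons with featureCounts 1.4.6 at a mapping quality of at least 4. The deposited values are these counts, unnormalized integers for each gene. Genes were matched to GENCODE vM21 by identifier, and 55141 of 55401 had a symbol. The 7 genes and the gene lists were chosen with earlier results of these data known.

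From the counts, 14475 genes kept by filterByExpr were tested with edgeR 4.0.16 (TMM, quasi-likelihood F test, Benjamini-Hochberg adjustment over all genes tested) with genotype and circadian time as terms. Change of rhythm was the interaction of genotype with a cosine and a sine of period 24 h (2 degrees of freedom), and a second model held genotype, day or night and their interaction. Rhythms within a genotype were tested with an own implementation of JTK_cycle (12 phases, exact null distribution, adjusted over phases), and q values were adjusted over 32471 genes. DESeq2 1.42.0 gave size factors for normalized counts and an alternative test. The tests were tried on simulated data first. The 46 mice were identified from the size factors behind a rhythm table of the study, which match the set without SV384 and SV385. Counts of 3 or fewer were taken as the floor of detection. All 72 pairs of mice within groups differed by more than sampling noise (chi-square per gene of 1.93 to 14.9), and each numbered mouse of the labels was taken as 1 replicate. Named genes are the 7 hydrolases, Arntl and Nr1d1, the 5 genes most like Sis on each of 2 scales, and, of each list, those past both thresholds (at most 4) and the gene with the highest mean count, and genes named beyond that were chosen after their values were seen. Scripts ran in R 4.3.3 and Python 3.11.15 (pandas 2.3.3, numpy 2.4.6 and, for plots, matplotlib 3.10.9). No sequencing batch is given in the sources used here. A few genes of the lists are not reported here by name.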

Additional observations from a re-analysis of the deposited data

Results flagged for a closer look

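In groups of 4 mice, 7 values of these enzymes lay apart from the other 3 of their group by Dixon's criterion, out of 83 groups examined; chance alone sets apart about 1 group in 20. Anpep was at 180.7 normalized counts in Bmal1IEC-/- mouse SV395 at CT13, where the other 3 mice had 58.2 to 68.7, and Mep1b was at 556.5 in the same mouse against 413 to 435. Anpep was at 94.8 in control mouse SV424 at CT13. Mep1b was at 472.9 in Bmal1IEC-/- mouse SV471 at CT21, the mouse with the lowest Sis value of all, and Treh was at 2.04 there, against 0 in the other 3. That Treh value is 2 counts, under the floor. Beside 3 values of 0 any count is set apart, so the rate of 1 in 20 does not hold for it. Mgam was at 1110 in control mouse SV438 at CT17, the lowest control value of the gene. Sis was at 437.7 in control mouse SV468 at CT1, against 224 to 245 in the other 3, and without this mouse the rhythm of Sis in controls had an adjusted p of 0.00223. What sets these mice apart was not tested.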

How the results depend on the processing

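The log2 difference of Sis, which was chosen from this contrast, ran from -2.94 to -2.84 with single mice left out and from -2.93 to -2.88 elsewhere. Relative to the summed epithelial markers, an alternative added after the data were seen, the log2 differences were -2.93 for Sis, -0.04 for Dpp4, -0.03 for Mep1a and -0.06 for Anpep, and Anpep was also below 0 with all 48 mice (-0.03) and without any of 13 single mice (range over all -0.08 to 0.05). The other brush border and uptake genes past both thresholds numbered 6, and 5 to 7 across alternatives (Slc6a20a or Alpi lost, Slc15a1 gained). Rhythmic hydrolases in controls were 4, 2 with q over all genes and 3 to 4 with single mice left out, and in Bmal1IEC-/- mice 2, 1 with q and 2 throughout with single mice left out. Leaving out SV433 or SV434 took the rhythm p of Sis in controls to 0.0571, with a range of 0.00223 to 0.0571. Over all genes, genotype calls were 197, 319 without a count filter and 51 by glmTreat; changes of rhythm were 136, 278 with all 48 mice and 84 with time as a factor; period interactions were 10, and 18 with all 48 mice or by DESeq2; rhythmic genes by q were 5026 against 7810 by p in controls and 1396 against 4597 in Bmal1IEC-/- mice. The cause of these shifts was not tested. Each mouse has its own number in the labels, so no mouse was sampled repeatedly. The controls were littermates, but the litter of each mouse is not given in the sources used here, so no pairing by litter was possible. Intervals of Treh cannot be had at this depth, and Sis counts of 14 to 82 in Bmal1IEC-/- mice limit what can be said of its rhythm there.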
